A study of Homo sapiens with 13 samples.

Results

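ABC transporters are membrane proteins that use ATP to carry lipids, metabolites, peptides and drugs across membranes. The human family is divided into subfamilies A to G, and its members were taken here as every Ensembl gene whose symbol is ABC, a subfamily letter and a number. This gave 46 of 61541 genes, with 12 in subfamily A, 9 in B, 12 in C, 4 in D, 1 in E, 3 in F and 5 in G. Of these, 26 passed the minimum mean level of 1 CPM (counts scaled to library size) in a time series and 25 in a dose response, 24 of them in both. TAP1, TAP2 and CFTR belong to the same protein family under other symbols and are not among the 46.

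All libraries came from RUES2 human embryonic stem cells, an established line, carrying GFP fused to SMAD4, the shared transducer of BMP and Nodal signals. In the time series the cells were given 100 ng/mL BMP4 with 5 µM IWP2, an inhibitor of Wnt secretion, and 1 library each was made at 4, 12, 20, 28 and 42 h, with 2 libraries at 0 h. The labels give this treatment for the libraries at 0 h too, do not say whether the 2 were separate cultures, and give no untreated library at the later times. In the dose response all cells were collected at 5 h, 1 library per condition. Cells received BMP4 and IWP2 with 0, 10, 30, 100 or 300 nM LDN-193189 (LDN), a small molecule that blocks the kinase of BMP type I receptors, or were left untreated in mTeSR1 medium, without BMP4, IWP2 or LDN. The labels add ROCK inhibitor (RI) to every treatment but not to the untreated cells, although the growth protocol has it in the medium. The time series was made from total RNA after ribosomal RNA depletion and the dose response from polyadenylated RNA, so levels are compared only within each experiment. A single tagged line and 1 library at nearly every condition limit what the values say about other lines, and p-values measure the spread of these libraries around a fitted line.

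Libraries held 37956244 to 71331540 counts in the time series and 15600645 to 33989489 in the dose response, the untreated library being the shallowest. The mitochondrial share of counts ranged from 2.01% to 7.60% in the time series, highest in 0 h replicate 1, and from 4.22% to 7.89% in the dose response, highest in untreated cells. Summed levels of 6 pluripotency markers went from 4145 and 4722 CPM at 0 h to 2086 CPM at 42 h, and 5 of the 6 fell over time. Their median fitted log2 change from 0 to 42 h was -4.80. The sum includes the 1 marker that was not called, and it fell by less than this median. Summed levels of 8 amnion markers went from 25 and 28.1 CPM to 7129 CPM, with 6 of 8 rising, and none of the 8 was at 0 in the time series. Across 0 to 300 nM LDN the amnion sum went from 200 to 33.8 CPM, beside 25.8 CPM in untreated cells. Trophoblast markers (CGA, CGB5, GCM1, SIGLEC6) summed to at most 0.603 CPM, primitive streak markers to at most 8.73 CPM and neural markers to at most 1.45 CPM in any library, while the endoderm markers SOX17 and FOXA2 summed to 3.21 and 2.89 CPM at 0 h and 4.15 CPM in untreated cells. The marker sums changed over the same hours as the members described below, and the part of that change in their levels was not tested. In bulk RNA, fewer cells of a type and less RNA per cell cannot be told apart.

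Members of subfamilies A and G are best known for lipid and sterol export, those of B for peptides and for iron and heme traffic in mitochondria, C for efflux of drugs and conjugated anions, and D for fatty acid import into peroxisomes. The proteins of E and F have the ATP-binding domains but no membrane domain and act on ribosomes and translation. In the early embryo and its extraembryonic tissues, sterol handling and efflux pumps are known parts of the barrier and nutrient functions of epithelia.

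The RefSeq promoter table (GRCh38.p14) held 53 windows for 35 of the 46 members, of which the 250 bases before the start site were read. The window of ABCA1 is shown because the level of its gene was lower at higher LDN doses at 5 h (below). That of ABCD3 is shown because its gene rose late and was not called in the dose trend. Both windows overlap no annotated exon. Capitals mark GGAGCC or its reverse complement GGCTCC, a GC-rich sequence that SMAD proteins of the BMP pathway are known to bind.
ABCA1, chr9:104928156-104928405, minus strand: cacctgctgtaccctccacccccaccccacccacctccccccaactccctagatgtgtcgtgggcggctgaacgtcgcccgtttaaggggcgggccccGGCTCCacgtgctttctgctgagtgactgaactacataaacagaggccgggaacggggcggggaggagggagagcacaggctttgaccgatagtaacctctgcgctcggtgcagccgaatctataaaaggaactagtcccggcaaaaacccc
ABCD3, chr1:94418139-94418388, plus strand: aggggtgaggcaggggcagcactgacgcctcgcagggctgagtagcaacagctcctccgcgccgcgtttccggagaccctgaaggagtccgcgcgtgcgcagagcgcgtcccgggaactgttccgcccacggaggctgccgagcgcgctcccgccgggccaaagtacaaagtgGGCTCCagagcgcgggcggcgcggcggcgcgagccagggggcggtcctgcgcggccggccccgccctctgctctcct
The ABCA1 window held 1 GGAGCC match, 1 CACGTG (an E-box) that overlaps the GGAGCC match by its first base, 3 GGGCGG (GC box) and 1 TATAAA. The ABCD3 window held 1 GGAGCC match and 4 GGGCGG. Neither window held GGCGCC or GTCTAGAC. GGAGCC occurred in 32.1% of the 53 member windows and in 30.6% of all 35116 windows of 250 bases, similar shares. All motifs were searched on both strands. CACGTG occurred in 17.0% of member windows and 6.34% of all windows, GGGCGG in 47.2% and 42.6%, GGCGCC in 13.2% and 16.4%, TATAAA in 11.3% and 10.7%, and GTCTAGAC in 0% and 0.182%. Windows of the same gene can overlap, as at ABCG2, where overlapping windows hold the same CACGTG. The windows are thus not independent, and the shares were not tested. A match is a match of letters and not a site shown to be bound.

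**Figure D1:**
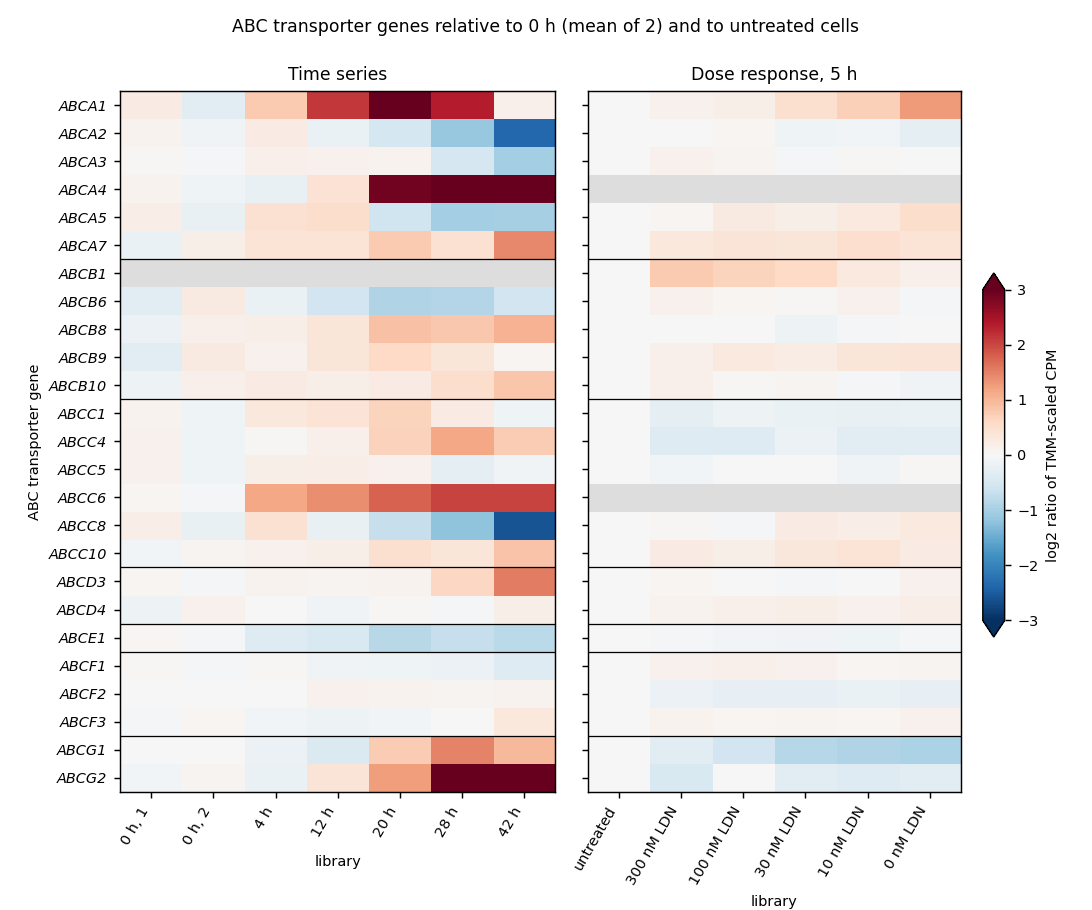
Log2 ratio of TMM-scaled CPM (0.1 added) for 25 of the members tested in either experiment, each row a gene and each column a library, relative to the mean of the 2 libraries at 0 h (left) or to untreated cells at 5 h (right); grey rows were not tested and colours stop at 3 in either direction. ABCA4 and ABCG2 end the time series above the top of the scale, ABCA1 is highest at 20 h, and ABCA1 lightens as LDN increases.

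Over 42 h of BMP4 and IWP2, the family moved in both directions. A line in hours was fitted to each gene's counts over the 7 libraries, and its fitted log2 change from 0 to 42 h is called the change below, ± its standard error. Levels are TMM-scaled CPM and are listed in the order of time, the 2 libraries at 0 h first and then those at 4, 12, 20, 28 and 42 h. In the quasi-likelihood test of edgeR, with p-values adjusted by Benjamini-Hochberg over 15976 genes, 10 of 26 members rose (38.5%, against 19.2% of all genes) and 5 fell (19.2%, against 17.5% of all genes). In either direction 15 of 26 passed (57.7%, against 36.7%), and 18 of 26 had an unadjusted p under 0.05. With library totals in place of TMM scaling, 7 rose and 7 fell. Of all 15976 genes, 2121 rose and 4069 fell with that scaling, against 3072 and 2793 with TMM. Library totals shifted the median log2 ratio of all genes at 42 h against 0 h from -0.01 to -0.24. The median change was 0.23 over the tested members and -0.0047 over all genes. Leaving out the 4 h or the 28 h library left 3 that fell, where 2098 and 2058 of all genes fell. By subfamily, 2 rose and 3 fell of 6 in A, 2 rose of 5 in B, 3 rose and 1 fell of 6 in C, 1 rose of 3 in D, the single member of E fell, both tested members of G rose, and the 3 members of F were not called.

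Compared directly, without a test, 7 of 26 members were at least 2-fold above the 0 h mean at 42 h, with both 0 h libraries lower (among them ABCA4, ABCA7, ABCB8, ABCC6, ABCD3 and ABCG2, against 15.4% of all genes), and 4 were at least 2-fold below it (ABCA2, ABCA3, ABCA5 and ABCC8, against 15% of all genes). Without 0 h replicate 1 the 4 became 2, the ratios of ABCA3 and ABCA5 being near the limit at log2 values of -1.03 and -1.01. The 2 libraries at 0 h differed by a median of 0.24 log2 units over the tested members and by at most 0.60, and over all genes by a median of 0.27.

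Among the lipid transporters of subfamily A, ABCA4 rose and ABCA2 and ABCA3 fell, while ABCA1 made a pulse. ABCA1 (ENSG00000165029, chromosome 9 of GRCh38, 104781006 to 104928155, minus strand) exports cholesterol and phospholipid to apolipoproteins. It stood at 14.0 and 9.49 CPM at 0 h, then 20.4, 51.3, 93.6, 60.8 and 13.2 CPM. All 4 libraries from 4 to 28 h lay above both 0 h libraries, and the 42 h library lay between them. A straight line accordingly left a change of 1.86 ± 1.56 (edgeR adjusted p = 0.375), whereas a curve quadratic in hours, tested on both of its terms, gave an adjusted p = 1.77e-05. At 20 h the log2 ratio to the 0 h mean was 2.98, and at 42 h it was 0.16.

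ABCA4 (ENSG00000198691, chromosome 1, 93992834 to 94121148, minus strand), which clears retinoid adducts in photoreceptors, was nearly silent at first. Its levels were 0.130 and 0.0955 CPM at 0 h (5 and 7 counts), then 0.0815, 0.187, 1.47, 5.37 and 15.6 CPM (826 counts). The libraries from 20 h on were all above the earlier ones, and each was above the one before. Its change of 8.0 ± 0.65 was the largest of the 26 (edgeR adjusted p = 0.000111) and was called with any 1 library left out. At 42 h the log2 ratio to 0 h was 6.20, which became 3.90 with 1 CPM added in place of 0.1 and 4.16 on the authors' FPKM.

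ABCA7, a phospholipid transporter, stood at 24.3 and 31.1 CPM at 0 h, then 36.7, 36.7, 47.4, 37.7 and 75.5 CPM. Every later library lay above both at 0 h, and the 42 h library lay furthest. The change was 1.21 ± 0.24 (edgeR adjusted p = 0.00656), and 0.83 without the 42 h library (adjusted p = 0.144).

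In contrast, ABCA2 (ENSG00000107331), an endolysosomal lipid transporter, declined. It stood at 23.8 and 20.8 CPM at 0 h, then 26.5, 19.3, 15.4, 10.0 and 4.30 CPM. From 4 h on, each library was below the one before, and those from 12 h on were below both at 0 h. The change was -2.31 ± 0.34 (edgeR adjusted p = 0.00149), called with any 1 library left out. ABCA3, which loads surfactant lipid into lamellar bodies in lung, kept 20.8 to 23.6 CPM in the libraries up to 20 h and then stood at 15.0 at 28 h and 10.4 CPM at 42 h. Its change of -0.99 ± 0.29 (adjusted p = 0.0302) became -0.51 without the 42 h library (adjusted p = 0.351), and it was called in 4 of the 7 fits that each left out 1 library. ABCA5, a lysosomal member, stood at 8.55 and 6.33 CPM at 0 h, then 10.3, 10.8, 4.89, 3.62 and 3.66 CPM, so it was higher at 4 and 12 h and lower afterwards than at 0 h. Its change of -1.45 ± 0.46 (adjusted p = 0.0394) was still called in 2 of the 7 fits that each left out 1 library.

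Subfamily G held the largest rise in absolute level. ABCG2 (ENSG00000118777, chromosome 4, 88090150 to 88231628, minus strand) is an efflux pump for drugs, urate and porphyrins that is abundant in placenta and in some stem cells. It stood at 3.76 and 4.24 CPM at 0 h, then 3.48, 5.24, 9.64, 39.6 and 249 CPM. The 4 h library was a little below both at 0 h, and from 12 h on each library was above all earlier ones. The change was 5.93 ± 0.53 (edgeR adjusted p = 0.000156), called with any 1 library left out, and the 42 h level was 60.7 times the 0 h mean. On the length-scaled FPKM of the authors, ABCG2 stood at 1.86 and 2.05 at 0 h and at 113 at 42 h, above every other member at that time.

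ABCG1 (ENSG00000160179, chromosome 21, 42199689 to 42297244, plus strand), which passes sterol on to high-density lipoprotein and acts alongside ABCA1, stood at 3.01 and 3.08 CPM at 0 h, then 2.67, 2.21, 5.24, 8.69 and 6.11 CPM. It was below both 0 h libraries at 4 and 12 h and above them from 20 h on. The change was 1.57 ± 0.47 (edgeR adjusted p = 0.0309), still called in 3 of the 7 fits that each left out 1 library. With library totals the change was 1.36 and was not called (edgeR adjusted p = 0.0536). Of the pair of sterol exporters, ABCA1 was highest at 20 h and ABCG1 at 28 h.

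**Figure D2:**
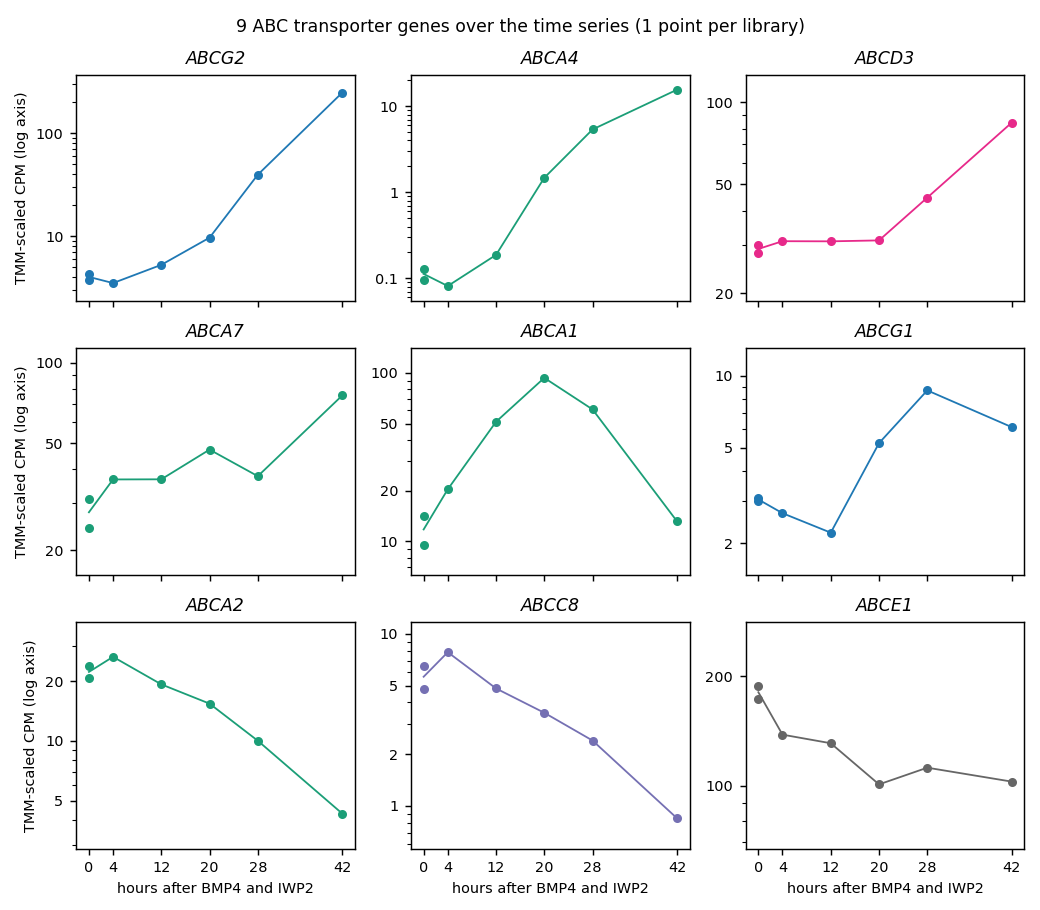
Level (TMM-scaled CPM, log axis, a separate range in each panel) against hours after BMP4 and IWP2 for 9 members, 1 point per library with 2 at 0 h; lines join the points, through the mean at 0 h. ABCG2 reaches 249 CPM at 42 h, ABCA1 peaks at 93.6 CPM at 20 h, and ABCA2 and ABCC8 are lowest at 42 h.

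In subfamily B, the mitochondrial members ABCB8 and ABCB10 rose by modest amounts. ABCB8, a mitochondrial transporter linked to iron export, stood at 19.7 and 25.1 CPM at 0 h, then 25.1, 29.1, 41.5, 39.4 and 46.1 CPM. All libraries from 12 h on lay above both at 0 h. The change was 1.11 ± 0.21 (edgeR adjusted p = 0.00494), called with any 1 library left out. ABCB10, an inner-membrane protein needed for heme synthesis, ranged from 20.5 and 25.4 CPM at 0 h to 32.9 at 28 h and 40.8 CPM at 42 h, with 25.8 to 27.3 CPM in between. Its change was 0.76 ± 0.18 (adjusted p = 0.0119), and 0.64 without the 42 h library (adjusted p = 0.140). With library totals the change was 0.51 and was not called (edgeR adjusted p = 0.0575).

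Among members of subfamily B that were not called, ABCB6, a porphyrin transporter, had a change of -0.74 ± 0.30 (edgeR adjusted p = 0.0892), and the quadratic curve gave an adjusted p = 0.00995. The change of ABCB9, a lysosomal peptide transporter, was 0.20 (adjusted p = 0.650). ABCB1, the P-glycoprotein drug pump, was at 0.829 and 0.696 CPM at 0 h and 0.264 CPM at 42 h, too low to be tested over time.

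Subfamily C rose at 3 members and fell at 1. ABCC8 (ENSG00000006071), the sulfonylurea receptor that regulates ATP-sensitive potassium channels of endocrine and nerve cells, fell. It stood at 6.48 and 4.79 CPM at 0 h, then 7.83, 4.82, 3.48, 2.40 and 0.848 CPM. Libraries from 20 h on were below both at 0 h, and each was below the one before. The change was -2.69 ± 0.45 (edgeR adjusted p = 0.00285), called with any 1 library left out. KCNJ11, the gene of the channel pore that pairs with ABCC8, had a change of -1.08 ± 0.37 (adjusted p = 0.0520), and KCNJ8 was too low to be tested.

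Of the multidrug resistance proteins, ABCC4, which exports cyclic nucleotides and prostaglandins, stood at 17.7 and 14.9 CPM at 0 h, then 16.8, 18.0, 26.5, 36.2 and 27.6 CPM. Its last 3 libraries lay above the rest, and the change was 1.11 ± 0.29 (edgeR adjusted p = 0.0179), which fell just short of the call with library totals (0.89, adjusted p = 0.0501). ABCC6, which mediates ATP release and restrains calcification, stood at 0.518 and 0.464 CPM at 0 h, then 1.22, 1.46, 1.92, 2.33 and 2.32 CPM. Every later library was above both at 0 h, and the change was 2.10 ± 0.56 (adjusted p = 0.020), or 1.09 on FPKM with limma (adjusted p = 0.114). It was called in 5 of the 7 fits that each left out 1 library, not without 0 h replicate 1 (adjusted p = 0.0622) or the 28 h library (adjusted p = 0.0514), and the change ran from 1.70 to 3.04 over these fits. ABCC10, a broad efflux pump, ranged from 30.0 and 33.4 CPM at 0 h through 34.7 to 44.4 CPM up to 28 h to 57.2 CPM at 42 h. Its change was 0.79 ± 0.16 (adjusted p = 0.00597), and 0.66 without the 42 h library (adjusted p = 0.0956).

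ABCC1, an exporter of glutathione conjugates, had the highest mean FPKM of its subfamily and ended near its starting level. It stood at 112 and 94.6 CPM at 0 h, then 129, 137, 165, 122 and 93.8 CPM. The libraries from 4 to 28 h were above both at 0 h, and the 42 h library was below both. The line gave a change of -0.04 (edgeR adjusted p = 0.934) and the quadratic curve an adjusted p = 0.0278. ABCC5, an exporter of cyclic nucleotides and heme, had a change of -0.23 (adjusted p = 0.380).

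In subfamily D, a late rise was called. ABCD3 (ENSG00000117528, chromosome 1, 94418389 to 94518666, plus strand), the main peroxisomal membrane transporter for branched and dicarboxylic fatty acids, stood at 30.0 and 28.0 CPM at 0 h, then 31.0, 30.9, 31.2, 44.7 and 84.2 CPM. Up to 20 h its libraries lay within 28.0 to 31.2 CPM, and the last 2 lay above. The change was 1.38 ± 0.24 (edgeR adjusted p = 0.00322), and 0.74 without the 42 h library (adjusted p = 0.0875). ABCD4, which works in lysosomal cobalamin release, had the highest mean FPKM of the subfamily. It stood at 41.9 and 50.8 CPM at 0 h, then 46.9, 43.1, 47.4, 44.4 and 52.3 CPM, all but the last within the 0 h range, with a change of 0.12 (adjusted p = 0.588).

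In subfamilies E and F, whose proteins act on ribosomes, ABCE1 fell and the members of F were not called. ABCE1 (ENSG00000164163, chromosome 4, 145098288 to 145129524, plus strand), which splits ribosomes after termination, stood at 188 and 174 CPM at 0 h, then 138, 131, 101, 112 and 103 CPM. All later libraries were below both at 0 h, including the 1 library at 4 h, with a log2 ratio to the 0 h mean of -0.39. In the dose response at 5 h, ABCE1 stood at 208 CPM with BMP4 and IWP2 and no LDN. Untreated cells held 217 CPM, so the log2 ratio there was -0.06. The change was -0.81 ± 0.21 (edgeR adjusted p = 0.0169), called with any 1 library left out. ABCF1, a translation initiation factor, stood at 186 and 179 CPM at 0 h, then 188, 170, 167, 160 and 140 CPM, below both 0 h libraries from 12 h on, with a change of -0.38 ± 0.14 that missed the threshold (adjusted p = 0.0616). ABCF2 and ABCF3 had changes of 0.11 and 0.27, neither called.

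**Figure D3:**
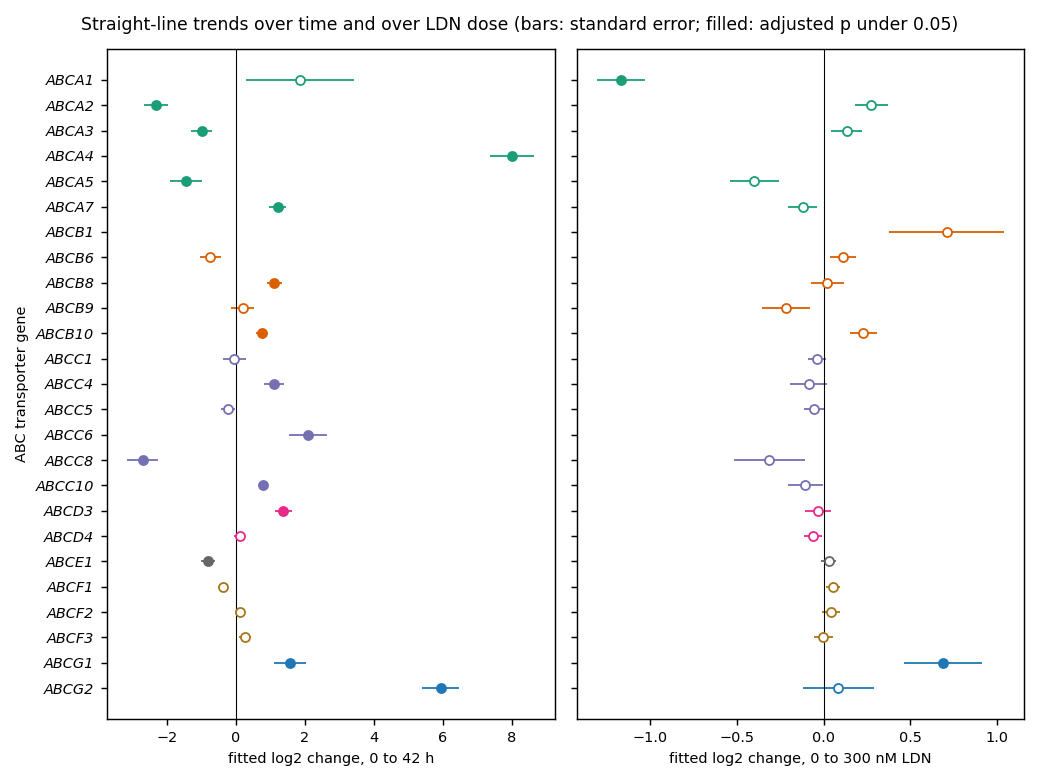
Fitted log2 change ± standard error for tested members, over 0 to 42 h on the left (24 shown) and over 0 to 300 nM LDN on the right (23 shown), coloured by subfamily and filled where the edgeR adjusted p was under 0.05; the axes have different ranges. On the left 10 members are filled above 0 and 5 below, and on the right ABCA1 is filled below 0 and ABCG1 above.

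On the authors' FPKM, which can be compared between genes, the mean over the time series was highest for ABCF1 (57.6), ABCE1 (47.2), ABCF3 (36.9) and ABCD4 (35.2). ABCF1 stood at 63.8 and 62.8 FPKM at 0 h and 43.3 at 42 h, and ABCE1 at 62.3 and 63.7 FPKM at 0 h and 31.5 at 42 h. These 2 neighbours overlapped at 0 h, and ABCG2 stood above both at 42 h. In subfamily A the highest mean was that of ABCA7, at 11.2 FPKM.

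**Figure D4:**
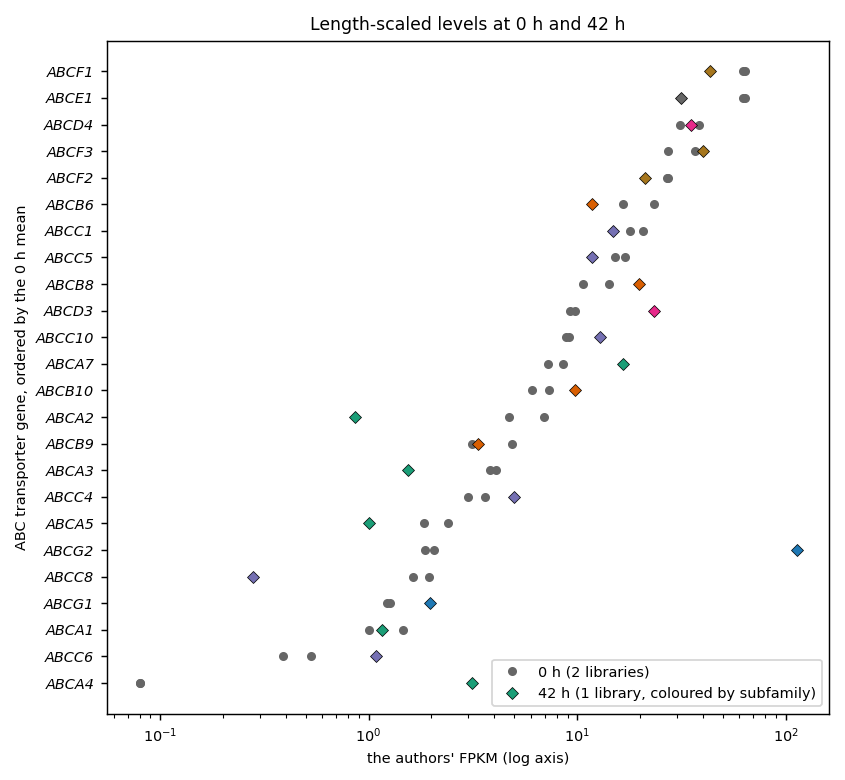
The authors' FPKM (log axis) of 24 members tested over time, in the 2 libraries at 0 h (grey) and in the library at 42 h (diamonds coloured by subfamily), ordered by the 0 h mean. ABCG2 moves from 1.86 and 2.05 to 113 FPKM, the highest level at 42 h, and ABCA2 and ABCC8 move furthest to the left.

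The second comparison asks which members changed with the dose of LDN, the BMP receptor inhibitor, at 5 h. Signaling itself was not measured in these libraries. A line over the 5 dose steps from 0 to 300 nM LDN was fitted with the same test, and the change is the fitted log2 change from 0 to 300 nM. Levels are listed from 0 through 10, 30 and 100 to 300 nM LDN. Of 25 members, 2 fell with LDN (8.0%, against 11% of all 14907 genes tested) and 1 rose (4.0%, against 10.3%). In all, 3 of 25 passed (12.0%, against 21.3%), and 6 had an unadjusted p under 0.05. The median change was -0.03 over members and -0.004 over all genes. The shares of members called were thus below the background, and ABCA1 and ABCG1 are described singly.

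ABCA1 stood at 19.6 CPM with BMP4 and no LDN, then 13.3, 11.3, 9.14 and 8.82 CPM at the rising doses, beside 8.10 CPM in untreated cells. Each dose was lower than the one before, and the library at 300 nM lay close to the untreated one. The change was -1.17 ± 0.14 (edgeR adjusted p = 6.95e-05). Of the difference between BMP4-treated and untreated cells, 45.1% was left at 10 nM, and 27.7%, 9.02% and 6.24% at the next doses. These shares rest on 286 counts at 100 nM, 294 at 300 nM and 121 in untreated cells, which also lacked IWP2. The levels at 100 and 300 nM lie within counting error of each other. The call held with any 1 library left out. With the dose entered in nM, untransformed, ABCA1 was not called (-0.86, adjusted p = 0.174).

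ABCG1 went the other way, at 2.26 CPM without LDN, then 2.36, 2.42, 2.97 and 3.60 CPM at the rising doses, beside 4.48 CPM in untreated cells. Each dose was higher than the one before and all were below the untreated library. The change was 0.69 ± 0.23 (edgeR adjusted p = 0.0477), and no fit that left out 1 library called it, with adjusted p from 0.0550 to 0.387. Behind these levels stood 66 counts at 0 nM and 120 at 300 nM.

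**Figure D5:**
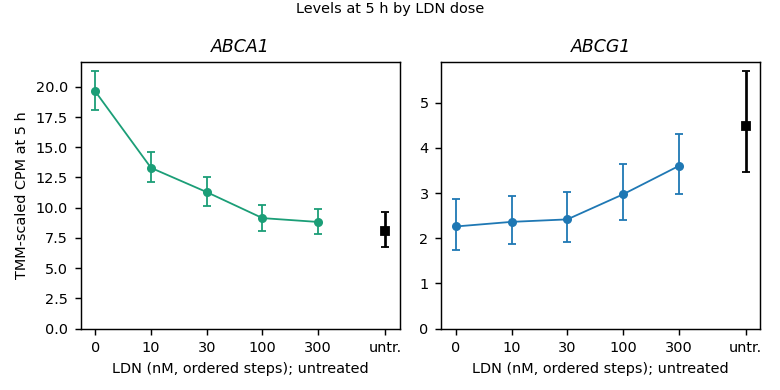
Level at 5 h (TMM-scaled CPM) of ABCA1 and ABCG1 by LDN dose in nM, as ordered steps, with untreated cells as a black square; bars are exact 95% Poisson intervals for counting error in 1 library each. ABCA1 goes from 19.6 to 8.82 CPM across the doses, and ABCG1 from 2.26 to 3.60 CPM.

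BMP4 without LDN was also compared with untreated cells, 1 library with 1 and so without a test. The untreated cells lacked IWP2 as well, and their label does not name ROCK inhibitor. The parts of BMP4, IWP2 and any difference in ROCK inhibitor cannot be told apart. Of 24 members, 2 were at least 1.5-fold higher with BMP4 (against 12.6% of all genes) and 1 was at least 1.5-fold lower (against 7.43%). ABCA1 was 2.41-fold higher (exact 95% counting interval 1.99 to 2.97) and ABCG1 at 0.515 times the untreated level (0.353 to 0.719). This comparison and the dose trend share the BMP4 library. A level that was lower at every higher dose was seen in 2 of 25 members (ABCA1 among them, against 7.4% of all genes), and one that was higher at every dose in 2 (ABCG1 and ABCB1, against 7.2%).

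ABCB1 stood at 0.753 CPM at 0 nM, then 0.845, 1.07, 1.12 and 1.23 CPM at the rising doses, and its change of 0.71 ± 0.33 was not called (edgeR adjusted p = 0.153). Untreated cells held 0.669 CPM, below all doses. The remaining changes ran from -0.40 for ABCA5 to 0.28 for ABCA2, none called, and ABCB10 came nearest (0.23 ± 0.08, adjusted p = 0.0540). ABCG2, with the highest level at 42 h, stood at 5.41, 5.28, 5.38, 6.93 and 5.01 CPM from 0 to 300 nM and 6.89 CPM in untreated cells, with no order by dose (change 0.09 ± 0.20, adjusted p = 0.805). ABCD3 lay between 33.6 and 37.2 CPM in all 6 libraries and ABCE1 between 200 and 217 CPM.

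The partner genes of these pathways were counted in the same fits, in which 19.2% of all genes rose and 17.5% fell over time, and 10.3% rose and 11% fell over LDN dose. The lists are small, and counts of 1 or 2 in a list of 9 or 10 lie near these shares. Of 13 tested genes of sterol export and its control, 8 rose over time (among them APOE, NPC1, NPC2, NR1H3, RXRA, RXRB and SREBF2) and LPCAT3 fell, with a median change of 0.85. The 8 became 3 without the 42 h library, 4 without the 4 h library and 5 without 0 h replicate 1, and a fall was called in 4 of the 7 such fits. Over LDN dose 5 of the 13 fell, among them MYLIP, NR1H3, RXRA and SCARB1, each with a change between -0.28 and -0.42. These became 3 without the 10 nM or the 100 nM library and 2 without the 300 nM library. NR1H3, the sterol-sensing receptor LXRα, and its partner RXRA had dose changes of -0.31 ± 0.10 (edgeR adjusted p = 0.0447) and -0.28 ± 0.06 (adjusted p = 0.00648). In other cells they together drive ABCA1 and ABCG1 transcription. NR1H2 and RXRB, from the same list, had dose changes of 0.05 and -0.14 and were not called (edgeR adjusted p = 0.673 and 0.311). A part of these genes in the levels of ABCA1 and ABCG1 was not tested.

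Of 10 genes of peroxisome assembly and fatty acid oxidation, 5 rose over time, among them ACAA1, ACSL1, ELOVL1 and PEX16, and HSD17B4 fell, and ACSL1 and PEX3 fell over LDN dose. The 5 became 1 without the 42 h library and 3 without 0 h replicate 1, the 4 h or the 12 h library, and the 2 over dose became 0 to 2 with 1 library left out. Among 10 iron-sulfur and heme genes, 2 fell over time, among them FLVCR1, which rose over dose. Of 9 genes of glutathione and drug response, GCLM and NFE2L2 rose and GSR and NR1I2 fell over time, and GCLC and GSTP1 rose over dose. Of 9 genes of ribosome recycling and the GCN2 pathway, ATF4 rose and EIF2AK4 fell over time, and both rose over dose. In these last 3 lists, leaving out 1 library gave 0 to 2 rising and 0 to 2 falling over time in each list, and 1 to 3 rising over dose. TAP1 and TAP2, the peptide transporters of antigen presentation, were called in neither trend.

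The 19 members tested in neither experiment were ABCA6, ABCA8, ABCA9, ABCA10, ABCA12, ABCA13, ABCB4, ABCB5, ABCB11, ABCC2, ABCC3, ABCC9, ABCC11, ABCC12, ABCC13, ABCD2, ABCG4, ABCG5 and ABCG8. They include exporters of bile acids and bile lipids (ABCB11, ABCB4), intestinal and hepatic sterol exporters (ABCG5, ABCG8) and the pseudogene ABCC13. Each had at least 3 counts in at least 1 library. The highest count was 3 for ABCB11 and 4 for ABCA9, and counts this low do not tell a low level from absence. In single libraries 3 counts equal 0.0409 to 0.0778 CPM in the time series and 0.0875 to 0.201 CPM in the dose response. The highest level in any library was 1.61 CPM, for ABCG4.

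Some levels are uncertain because exons are shared with other genes and the counting is not stated to use strand. ABCF2 shares 1914 exon bases with the read-through gene ABCF2-H2BE1, which reached 24.3 CPM over time, and ABCB6 shares 2841 with an unnamed coding gene that reached 4.65 CPM. ABCB9 overlaps ARL6IP4 on the opposite strand, which reached 87.6 CPM, and ABCE1 overlaps OTUD4 on the opposite strand by 276 bases, which reached 175 CPM. Of the members tested in neither experiment, ABCA10 shares 318 exon bases with ABCA5, which reached 10.8 CPM over time. ABCC11 overlaps LONP2 on the opposite strand by 289 bases, and LONP2 reached 55.2 CPM. ABCC6 has the near copies ABCC6P1 and ABCC6P2, at up to 0.626 and 0.204 CPM over time.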

How the data were processed

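RNA was measured by sequencing in 13 libraries (7 in the time series, 6 in the dose response). The authors trimmed reads with Cutadapt, aligned them with STAR 2.7.8a and estimated levels with RSEM 1.3.3 on GRCh38 with Ensembl annotation, whose release is not given in the sources used here. The deposited expected counts had been rounded to whole numbers by the authors, who also deposited FPKM, used here for levels between genes and as an alternative. Features without an Ensembl gene identifier (5 of 61546, 0.001287% to 0.003006% of counts) were left out.

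Testing was limited to genes averaging 1 CPM or more and used edgeR 4.0.16 with TMM factors computed within each experiment, the quasi-likelihood test and Benjamini-Hochberg adjustment over all genes tested (threshold 0.05). The time covariate was hours and the dose covariate the step from 0 to 300 nM LDN, without the untreated library. A standard error is the size of the change divided by the square root of F. Ratios between single libraries used TMM-scaled CPM with 0.1 added, and limits of 2-fold at 42 h and 1.5-fold at 5 h. Intervals (95%, exact) cover counting error only. Fits used R 4.3.3, with DESeq2 1.42.0 and limma 3.58.1 as alternatives, and were tested on simulated data. Positions and exon overlaps are from GENCODE 44 on GRCh38.

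Values are given for members called in either trend or by size and for the member with the highest mean FPKM of each subfamily, and the others by change, range or count. Some genes are not reported here by name, in the text or the figures, but stay in the counts. The members and gene lists were chosen with earlier results of these data known.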

Additional observations from a re-analysis of the deposited data

How the results depend on the processing

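The numbers of members called depended on the fit as follows. Over time, 10 members rose and 5 fell, where 3072 of all 15976 genes rose and 2793 fell. FPKM with limma gave 5 rising, where 2102 of all genes rose. Hours as log2(1 + hours) gave 2 falling, where 1366 of all genes fell. Leaving out each library in turn gave 8 to 10 rising and 3 to 6 falling, with 3 falling without the 4 h or the 28 h library. Over these fits 1935 to 3433 of all genes rose and 1408 to 3188 fell. Those falling numbered 2098 without the 4 h library and 2058 without the 28 h library. Without the 42 h library, ABCA3, ABCA5, ABCA7, ABCB10, ABCC10 and ABCD3 were no longer called. That fit also called fewer of all genes, 1935 rising and 1408 falling. Over LDN dose, the 1 rising member became 2 with DESeq2 size factors. None rose with library totals, without a filter on low counts or with DESeq2's Wald test. None rose with FPKM and limma, with dose in nM or with any 1 library left out. The 2 falling members became 0 with dose in nM. Of all 14907 genes, 1538 rose and 1635 fell in the main fit, 415 and 692 on FPKM with limma, and 79 and 311 with dose in nM. Those rising numbered 1640 with DESeq2 size factors, 1423 with library totals and 1182 with DESeq2's Wald test. Without a filter, 1578 of 31851 genes rose. With 1 library left out, 886 to 1415 of all genes rose and 1114 to 1560 fell. At 42 h, the 4 members at least 2-fold lower became 2 with 1 CPM added, 8 without a filter and 2 to 4 without 1 of the 0 h libraries (2 without replicate 1, since ABCA5 and ABCA3 lie near the limit). At 5 h, the 2 members higher with BMP4 became 5 on FPKM and 9 without a filter. The 1 lower became 2 on FPKM and 4 without a filter. Without a filter, the added members have under 1 CPM. No share of all genes is given for these counts by size. No member called or past a fold limit changed sign under these settings. Using the nuclear SMAD4 level that goes with each dose as the covariate, or adding the untreated library as a further step, left 2 falling and 1 rising. No paired analysis was possible because the groups compared share fewer than 2 replicate numbers. With 1 library per condition, differences between libraries that are not due to time or dose cannot be told apart from them, and shallow genes such as ABCG1 and ABCB1 rest on few counts.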
